A study of Mus musculus with 2 samples.

Results

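Transcripts of 10 genes of transforming growth factor beta (TGF-beta) signalling were followed in double-positive (DP) thymocytes with and without deletion of Bcl11b. They were the ligand genes Tgfb1 and Tgfb3, the receptor genes Tgfbr1, Tgfbr2 and Tgfbr3, the Smad genes Smad2, Smad3, Smad4 and Smad7, and the corepressor gene Ski. Every probe that was not a control and whose accession or name led to one of these symbols was taken, which gave 18 of the 41174 probes of the array. Of these, 16 were matched by accession and 2 by symbol, and 5 of the genes had more than 1 probe. RNA came from Bcl11bF/FCD4Cre/Tcra-/- DP thymocytes, in which a Cre under the control of Cd4 removes floxed Bcl11b, and from TCRa-/- DP thymocytes, named control below. Both groups lack Tcra and therefore stop before selection. On each of 2 mouse 2-colour oligonucleotide arrays, named biological replicates 1 and 2, a Bcl11b-deficient sample carried Cy5 and a control sample Cy3. No array had the dyes the other way round, and neither Cre nor floxed Bcl11b is mentioned for the control mice, so dye, Cre and loss of Bcl11b cannot be told apart. The labels do not give the age of the mice, how many gave a sample, or how DP cells were selected, and p-values measure only the spread between these 2 arrays.

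TGF-beta is secreted in a latent form, bound to its own propeptide and to anchoring proteins, and acts after release. The free ligand brings together the receptors encoded by Tgfbr2 and Tgfbr1, both of which are kinases, while the betaglycan encoded by Tgfbr3 presents ligand to them. The active Tgfbr1 kinase phosphorylates Smad2 and Smad3, which enter the nucleus with Smad4. Smad7 is induced by the pathway and blocks the receptor, and Ski holds Smad complexes in a repressive state. In the thymus the pathway is known for its part in thymocyte survival at selection and in the formation of regulatory T cells and NKT cells.

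Sequences of the array's probes were not used here, and 5 of the 10 genes matched RefSeq's promoter table. The 250 bases before the annotated start follow (GRCm38.p6, RefSeq, 5′ to 3′ on the gene's strand) for Smad3, the member with a promoter that read highest, and for the receptor pair Tgfbr1 (the upstream one of 2 starts in the table) and Tgfbr2. Capitals mark 2 motifs searched on both strands, the GC box GGGCGG with its reverse complement CCGCCC, and the Smad box CAGAC with its reverse complement GTCTG. The motifs share no overlap in these windows.

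Smad3, chr9:63757995-63758244, minus strand: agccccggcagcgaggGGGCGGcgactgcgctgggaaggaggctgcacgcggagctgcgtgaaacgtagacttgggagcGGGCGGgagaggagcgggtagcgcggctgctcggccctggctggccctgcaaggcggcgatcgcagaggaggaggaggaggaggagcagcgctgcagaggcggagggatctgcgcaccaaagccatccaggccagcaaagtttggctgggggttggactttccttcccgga

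Tgfbr1, chr4:47352972-47353221, plus strand: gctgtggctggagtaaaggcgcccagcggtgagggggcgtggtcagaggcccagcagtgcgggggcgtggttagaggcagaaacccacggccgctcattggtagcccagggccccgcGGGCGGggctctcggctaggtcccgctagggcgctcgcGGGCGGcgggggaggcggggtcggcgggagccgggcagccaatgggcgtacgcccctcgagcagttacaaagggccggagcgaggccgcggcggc

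Tgfbr2, chr9:116175364-116175613, minus strand: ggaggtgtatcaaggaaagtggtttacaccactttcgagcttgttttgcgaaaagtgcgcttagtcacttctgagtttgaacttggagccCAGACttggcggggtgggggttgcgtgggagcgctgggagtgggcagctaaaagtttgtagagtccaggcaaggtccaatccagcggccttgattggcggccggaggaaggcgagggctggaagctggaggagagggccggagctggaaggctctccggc

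The Smad3 window held 2 GC boxes, the Tgfbr1 window 2 and the Tgfbr2 window none. Over all 32851 promoters of this length, 32.7% held a GC box and 42.2% a Smad box. The Smad box occurred once in the Tgfbr2 window and was not found in the other windows shown. The window of the other Tgfbr1 start, not shown, held 1 Smad box and 0 GC boxes. Such matches describe letters only.

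Between 50.5% and 56.5% of the spots that were not controls were well above background in each of the 4 samples. Bcl11b itself read -1.40 and -0.28 (log2 ratio of deficient over control, replicates 1 and 2) by its brighter probe and -1.37 and -2.16 by the other. Its transcript was thus lower in the deficient cells by both probes, and the labels do not say which part of the gene is deleted. Of the DP markers, 10 of 10 were measured, Cd4, Cd8a, Rag1 and Rag2 among them, and their summed processed signal was 286705 and 250068 in deficient samples against 285593 and 250960 in control samples. By ratio, 7 of the 10 read lower on both arrays and 3 higher (median -0.26), where 38.5% and 36.4% of all genes did. The 3 include Cd8a, singled out after its values were seen, at 0.003 and 0.016. Its processed signals were lower in deficient samples, at 39955 and 34213 against 52473 and 41880 in control samples. Dntt, which encodes terminal transferase and was singled out after its values were seen, was read by its brightest probe. It made up 101830 and 87490 of the sums in deficient samples, against 45473 and 44308 in control samples. That probe had a mean log2 ratio of 1.58, while the other 2 kept probes of Dntt had -0.09 and -0.05. Without Dntt, the sums of the other 9 were 184872 and 162578 in deficient samples, against 240119 and 206652 in control samples. Both deficient samples were thus lower on their array. Probes kept for testing were well above background in 1 channel on both arrays, which left 21539 probes. Ratios are on the log2 scale, deficient over control, after background correction and loess within the array, with limma's SE (n = 2 arrays). Signals quoted per sample are Agilent's processed signals in units of scanner intensity, with no scaling between arrays, and signals of different probes are not compared.

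Tgfb3 was well above background in both deficient samples and in neither control sample. Smad3 read higher in deficient cells on both arrays by the 2 probes measured in both groups. Tgfbr1 read lower on both arrays, as did Smad2 and both probes of Smad4, by less. Tgfb1, Tgfbr2 and the brightest Ski probe lay near 0 on replicate 1 and above it on replicate 2, and Smad7 and Tgfbr3 were not well above background in any sample. No member passed limma's test over all kept probes in this setting (adjusted p from 0.0934 to 0.613), and neither did any other of the 21539 probes (0.0% called, lowest adjusted p 0.0842). At an unadjusted p under 0.05, 5 of the 13 kept member probes were higher and 1 lower, where 14.0% and 13.0% of all kept probes were (27.0% in either direction). The 5 included the 3 probes of Smad3, and 2 of the 5 were kept through the deficient channel alone, so this count is a description and no support. Of the 13, 6 were higher on both arrays (36.6% of all kept probes), 4 lower (36.9%) and 3 of opposite sign (26.5%).

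**Figure D1:**
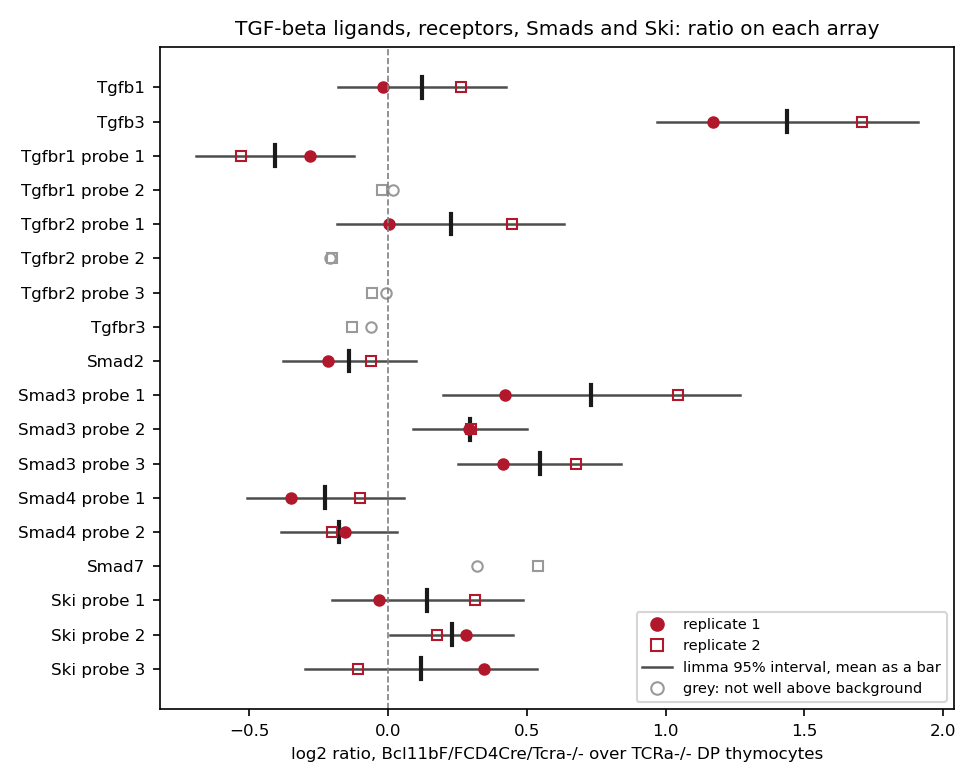
Log2 ratio of Bcl11bF/FCD4Cre/Tcra-/- over TCRa-/- DP thymocytes for each of the 18 member probes on replicate 1 (circle) and replicate 2 (square), with limma's mean (bar) and 95% interval (line) for the 13 kept probes, and the 5 probes not well above background in grey. Tgfb3 lies at 1.17 and 1.71, the Smad3 probes lie between 0.29 and 1.04, and Tgfbr1 probe 1 lies at -0.28 and -0.53.

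Among the ligands, Tgfb3 was measured by 1 probe at chr12:86945957-86946016 (mm8, the build of the array files). Its processed signal was 147 and 170.3 in the deficient samples of replicates 1 and 2, against 13.5 and 12.5 in the control samples. It was well above background in both deficient samples and in neither control sample. The uncorrected mean signals were 1365 and 1593 in deficient samples, against negative control medians of 923 and 1036 in that channel. In control samples they were 633 and 581, below the negative control medians of 696 and 732. Since the control level is only a bound, Tgfb3 was at least 1.48-fold higher in deficient cells (limma adjusted p = 0.0934). That bound sets the mean deficient signal against the dimmest control signal still well above background on each array. The fitted log2 ratios were 1.17 and 1.71, with a mean of 1.44 ± 0.16 (SE) and a 95% interval of 0.97 to 1.91. These fitted values are set against background in the control samples and are not sizes of a change. Tgfb3 passed the filter only through the deficient channel, so the filter favoured a higher reading there. The probes kept in that way numbered 633 (2.94% of kept probes), with a median of 0.23.

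The fitted value of Tgfb3 depended on the processing. Processed signals gave 3.61 (limma adjusted p = 0.0450), and centring on probes of like intensity gave 0.92 (limma adjusted p = 0.0960). Limma's adjusted p over the alternatives ranged from 0.0305 to 0.0960, and Tgfb3 passed with processed signals, the value table of the series, median centring and separate-channel limma. These used the same 2 arrays, and processed signals and the value table hold the same log10 ratio to within 0.005. Both of those set Tgfb3 against control signals of 13.5 and 12.5, which were not well above background. Of all kept probes, the settings that called Tgfb3 called 0.111%, 0.0604%, 3.94% and 3.03% as higher, in the order named.

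Tgfb1, the main TGF-beta of lymphoid tissue, was measured by 1 probe at chr7:25413618-25413677, spotted 10 times on each array. Its processed signal averaged 1461 and 1214 in deficient samples, against 1495 and 1016 in control samples, so the groups overlapped. The log2 ratio over the 10 spots ran from -0.10 to 0.09 on replicate 1 (median -0.02) and from 0.17 to 0.35 on replicate 2 (median 0.25). Repeated spots of 1 array thus differed by an SD of 0.070 and 0.062, while the arrays differed by 0.28. The mean over arrays was 0.12 ± 0.10 (SE, 95% interval -0.18 to 0.42, limma adjusted p = 0.480), and 0.31 with median centring.

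**Figure D2:**
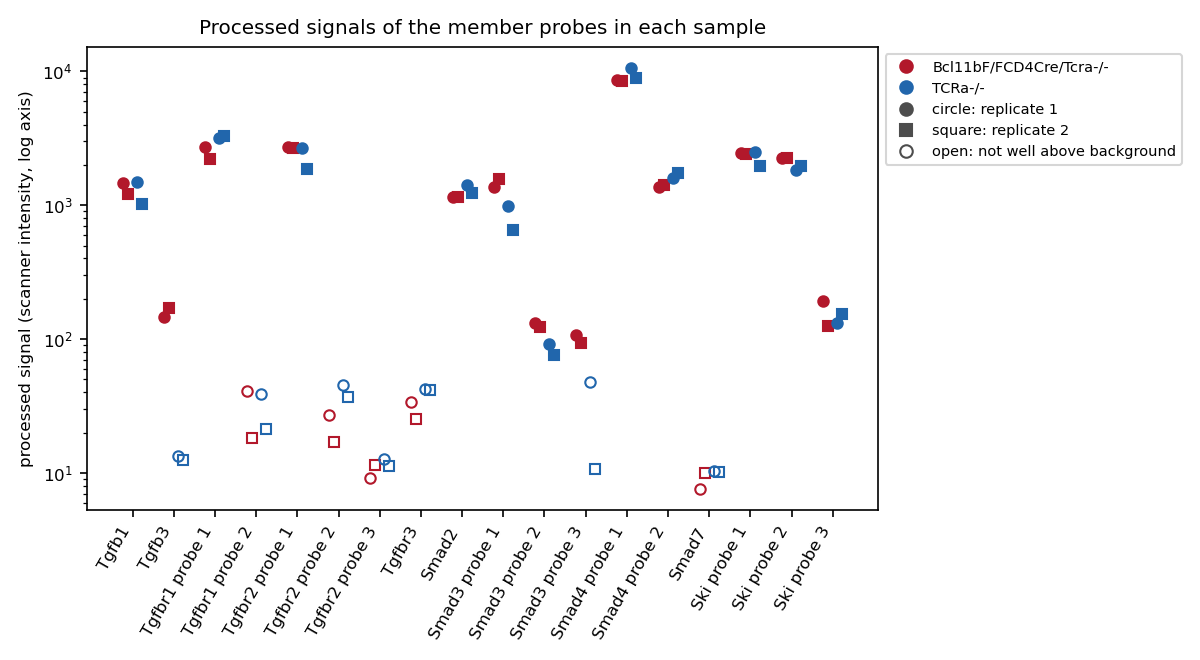
Processed signal (scanner intensity, log axis) of each member probe in the Bcl11bF/FCD4Cre/Tcra-/- samples (red) and the TCRa-/- samples (blue), replicate 1 as circles and replicate 2 as squares, with open symbols where the spot was not well above background. Tgfb3 is filled at 147 and 170.3 in deficient samples and open at 13.5 and 12.5 in control samples, while Tgfb1 overlaps between the groups.

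Among the receptors, Tgfbr1, the type I receptor kinase, read lower in deficient cells by its brighter probe at chr4:47435649-47435708. Its processed signal was 2711 and 2198 in deficient samples, against 3187 and 3282 in control samples. The log2 ratios were -0.28 and -0.53, with a mean of -0.41 ± 0.10 (SE, 95% interval -0.69 to -0.12), which puts the deficient cells at 75.4% of control (limma adjusted p = 0.131). With median centring the mean was -0.13. The other probe of Tgfbr1 (chr4:47428126-47431784, a span of 3659 bases) was not well above background in any sample, with processed signals of 40.7 and 18.2 in deficient against 38.6 and 21.3 in control samples.

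Tgfbr2, the type II receptor that binds ligand first, was well above background by 1 of its 3 probes, at chr9:115936735-115936794. Processed signals were 2711 and 2675 in deficient samples, against 2687 and 1852 in control samples. The deficient samples were alike and the control sample of replicate 2 was the low one, so the log2 ratios were 0.00 and 0.45 (mean 0.22 ± 0.14, SE, limma adjusted p = 0.362). Median centring gave 0.45. The 95% interval of -0.18 to 0.63 leaves room for a change in either direction. The other Tgfbr2 probes, one for transcript variant 2 (chr9:115958776-115958835) and one for a cDNA (chr9:115979425-115979484), stayed near background at 9.21 to 45.7 in the 4 samples. Tgfbr3, encoding the coreceptor betaglycan (chr5:107349188-107349247), was likewise not well above background, with 33.7 and 25.2 in deficient and 42.5 and 41.7 in control samples, and no fold is given.

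Among the receptor-activated Smads, Smad3 had 3 kept probes. Probe 1 (chr9:63445330-63445389) had processed signals of 1380 and 1562 in deficient samples, against 987 and 655 in control samples. The control sample of replicate 2 was again the lowest. Its log2 ratios were 0.42 and 1.04, with a mean of 0.73 ± 0.18 (SE, 95% interval 0.20 to 1.27, limma adjusted p = 0.136), or 1.66-fold. Probe 2 (chr9:63447691-63447750) was dimmer, with 132 and 124 in deficient against 91.3 and 76.3 in control samples. It read 0.29 and 0.30 (mean 0.30 ± 0.07, SE, limma adjusted p = 0.131), nearly the same on both arrays, and 0.62 with processed signals. Probe 3, designed on an expressed sequence tag that carries the Smad3 name and has no position in the files, had 107 and 92.9 in deficient samples against 47.8 and 10.7 in control samples. Neither control sample was well above background there, so probe 3 was at least 1.28-fold higher (fitted mean 0.55 ± 0.10, SE, limma adjusted p = 0.108). It too was kept only through the deficient channel, and processed signals gave it 2.14. Probes 1 and 2 thus shared a direction on both arrays, at 0.73 and 0.30, while the filter favoured a higher reading of probe 3. The limma adjusted p of probe 1 over the alternatives ranged from 0.0739 to 0.143, and no setting called a Smad3 probe.

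Smad2, whose protein is the close relative of Smad3 downstream of the same receptor, was measured by 1 probe at chr18:76430331-76430390. Processed signals were 1143 and 1144 in deficient samples, against 1405 and 1241 in control samples. The log2 ratios were -0.22 and -0.06, with a mean of -0.14 ± 0.08 (SE, 95% interval -0.38 to 0.10, limma adjusted p = 0.341). The difference between Smad2 and Smad3 was not tested. Median centring turned Smad2 to 0.05.

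Smad4, the partner shared by all receptor-activated Smads, had its probes at chr18:73764420-73764479 and chr18:73764362-73764396. By the brighter one, deficient samples had 8587 and 8447 and control samples 10606 and 8992. By the other, deficient samples had 1373 and 1425, against 1590.0 and 1740 in control samples. By both probes the deficient sample was lower on each array. The log2 ratios were -0.35 and -0.10 for the brighter probe (mean -0.23 ± 0.10, SE, limma adjusted p = 0.240) and -0.15 and -0.20 for the other (mean -0.18 ± 0.07, SE, limma adjusted p = 0.223). Both intervals included 0, at -0.51 to 0.06 and -0.39 to 0.03, and median centring turned the means to 0.22 and 0.02. Smad7, the inhibitory Smad and a direct target of the pathway, was not well above background at its probe (chr18:75521082-75521141), with 7.62 and 10.05 in deficient and 10.3 and 10.2 in control samples. Its normalised log2 ratios of 0.32 and 0.54 are ratios of background, and its level in these cells could not be compared on these arrays.

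Ski, which recruits corepressors to Smad complexes, had 3 kept probes that read alike in size and unlike in pattern. The brightest (chr4:153999502-153999561) had 2442 and 2408 in deficient against 2486 and 1980 in control samples, and read -0.03 and 0.31. The second (chr4:153998186-153998245) had 2237 and 2239 in deficient against 1827 and 1979 in control samples, and read 0.28 and 0.18. The third (chr4:154003101-154003160) had 193 and 124 in deficient against 131 and 153 in control samples, and read 0.35 and -0.11. Means were 0.14 ± 0.12, 0.23 ± 0.07 and 0.12 ± 0.14 (SE), with limma adjusted p of 0.472, 0.179 and 0.613. Only the second probe had the same sign on both arrays. With median centring the means were 0.39, 0.46 and 0.14 (limma adjusted p = 0.168, 0.0642 and 0.547).

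For several members the arrays parted in the control channel. Between replicate 2 and replicate 1 the ratio of processed signals was 0.831 in deficient and 0.680 in control samples for Tgfb1. It was 0.987 and 0.689 for Tgfbr2 probe 1, 1.13 and 0.664 for Smad3 probe 1, and 0.986 and 0.796 for Ski probe 1. Over all kept probes the median of that ratio was 0.969 in deficient and 0.969 in control samples. In these 4 probes the higher log2 ratio on replicate 2 thus went with a lower control signal. Fewer cells of a type and less RNA per cell cannot be told apart in such bulk samples.

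**Figure D3:**
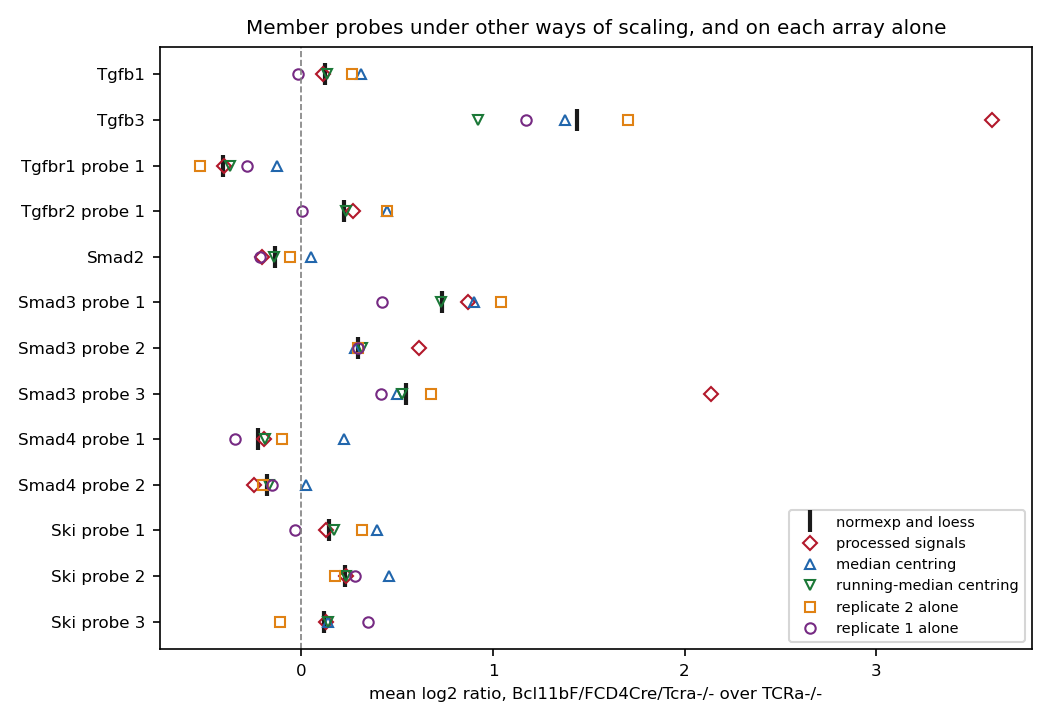
Mean log2 ratio of Bcl11bF/FCD4Cre/Tcra-/- over TCRa-/- for the 13 kept member probes with the reported processing (black bar), with processed signals, median centring and running-median centring, and on each array alone. Smad3 probes 1 and 2 stay above 0 under each of these, Tgfb3 ranges from 0.92 to 3.61, whereas Smad2 and both Smad4 probes cross 0 with median centring, and Tgfb1 and Ski probes 1 and 3 cross 0 on 1 array.

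Beyond the members, 8 lists of 73 genes of the wider pathway were read, each gene by its brightest kept probe. A kept probe was found for 55 of them. Limma called 0 of the 55 (least adjusted p 0.0903). At an unadjusted p under 0.05, 8 were higher and 10 lower, against 15.0% and 14.0% of all 14921 genes with a kept probe. On both arrays 13 were higher and 22 lower, where 36.4% and 38.5% of all genes were, and the median was -0.05 against 0.00 over all genes. With median centring the split of means was 38 above and 17 below 0, in place of 22 and 33.

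Genes of latency, activation and ligand handling had a median of 0.31 over 7 kept of 12 listed genes. Of these, 5 were higher on both arrays and 1 lower, where 36.4% and 38.5% of all genes were. The 5 include Itgb6, singled out after its values were seen, which was well above background in deficient samples alone, so the filter favoured a higher reading. Nrros, whose product anchors latent TGF-beta on myeloid cells, had processed signals of 18032 and 18086 in deficient samples, against 12016 and 8481 in control samples. It read 0.64 and 1.12 (mean 0.88 ± 0.15, SE, limma adjusted p = 0.105). Ltbp4, encoding a latent TGF-beta binding protein of the extracellular matrix, had 487 and 264 in deficient against 235 and 99.2 in control samples, and read 0.77 and 0.74 (mean 0.76 ± 0.07, SE, limma adjusted p = 0.0903). These 2 were at least 0.5 higher on both arrays, as 3.39% of all genes were, and no gene of the lists was at least 0.5 lower on both (1.79%). Its relative Ltbp3, singled out after its values were seen, read 0.48 and 0.46, and was well above background in 1 control sample. Median centring and separate-channel limma each called Nrros (limma adjusted p = 0.0468 and 0.0476) and the kinase adaptor gene Tab1 (0.0498 and 0.0481), and median centring also called Ltbp4 (0.0407). Tgfb2, Ltbp1, Ltbp2 and Itgb8 were not well above background, and Lrrc32 had no probe.

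Genes known to respond to TGF-beta had a median of -0.09 over 8 kept of 12 listed genes. Of the 8, 1 was higher on both arrays and 3 lower, where 36.4% and 38.5% of all genes were. The 3, named after their values were seen, were Itgae, the integrin chain that TGF-beta induces on T cells (-0.32 and -0.45), and the feedback inhibitor genes Pmepa1 (-0.25 and -0.32) and Ldlrad4 (-0.31 and -0.24). Their limma adjusted p ran from 0.117 to 0.141, and Itgae had 129 and 84.5 in deficient samples against 203 and 179 in control samples. Id1, the 1 that was higher on both arrays and also named after its values were seen, read 0.09 and 0.40. Cdkn2b, Foxp3 and Smad6 were among those not well above background.

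The corepressors, ubiquitin ligases and other Smad regulators had a median of -0.12 over 19 kept of 20 listed genes. Of the 19, 2 were higher on both arrays and 10 lower, where 36.4% and 38.5% of all genes were. The ends of the list, picked by their values, were Bambi, a decoy receptor gene (-0.28 and -0.64, limma adjusted p = 0.143), and Tgfbrap1, a receptor-associated protein gene (0.21 and 0.42, limma adjusted p = 0.153). Other receptors of the family had a median of -0.08 over 6 genes. Its upper end, picked by its values, was the coreceptor gene Eng at 0.33 and 0.51. Activin and BMP ligands had -0.21 over 4 genes, other Smads 0.02 over 3, coactivators and DNA binding partners 0.01 over 7, and non-Smad kinases -0.01 over 5. In the last of these, Tab1, at its upper end and singled out after its values were seen, read 0.48 and 0.79 (limma adjusted p = 0.107).

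**Figure D4:**
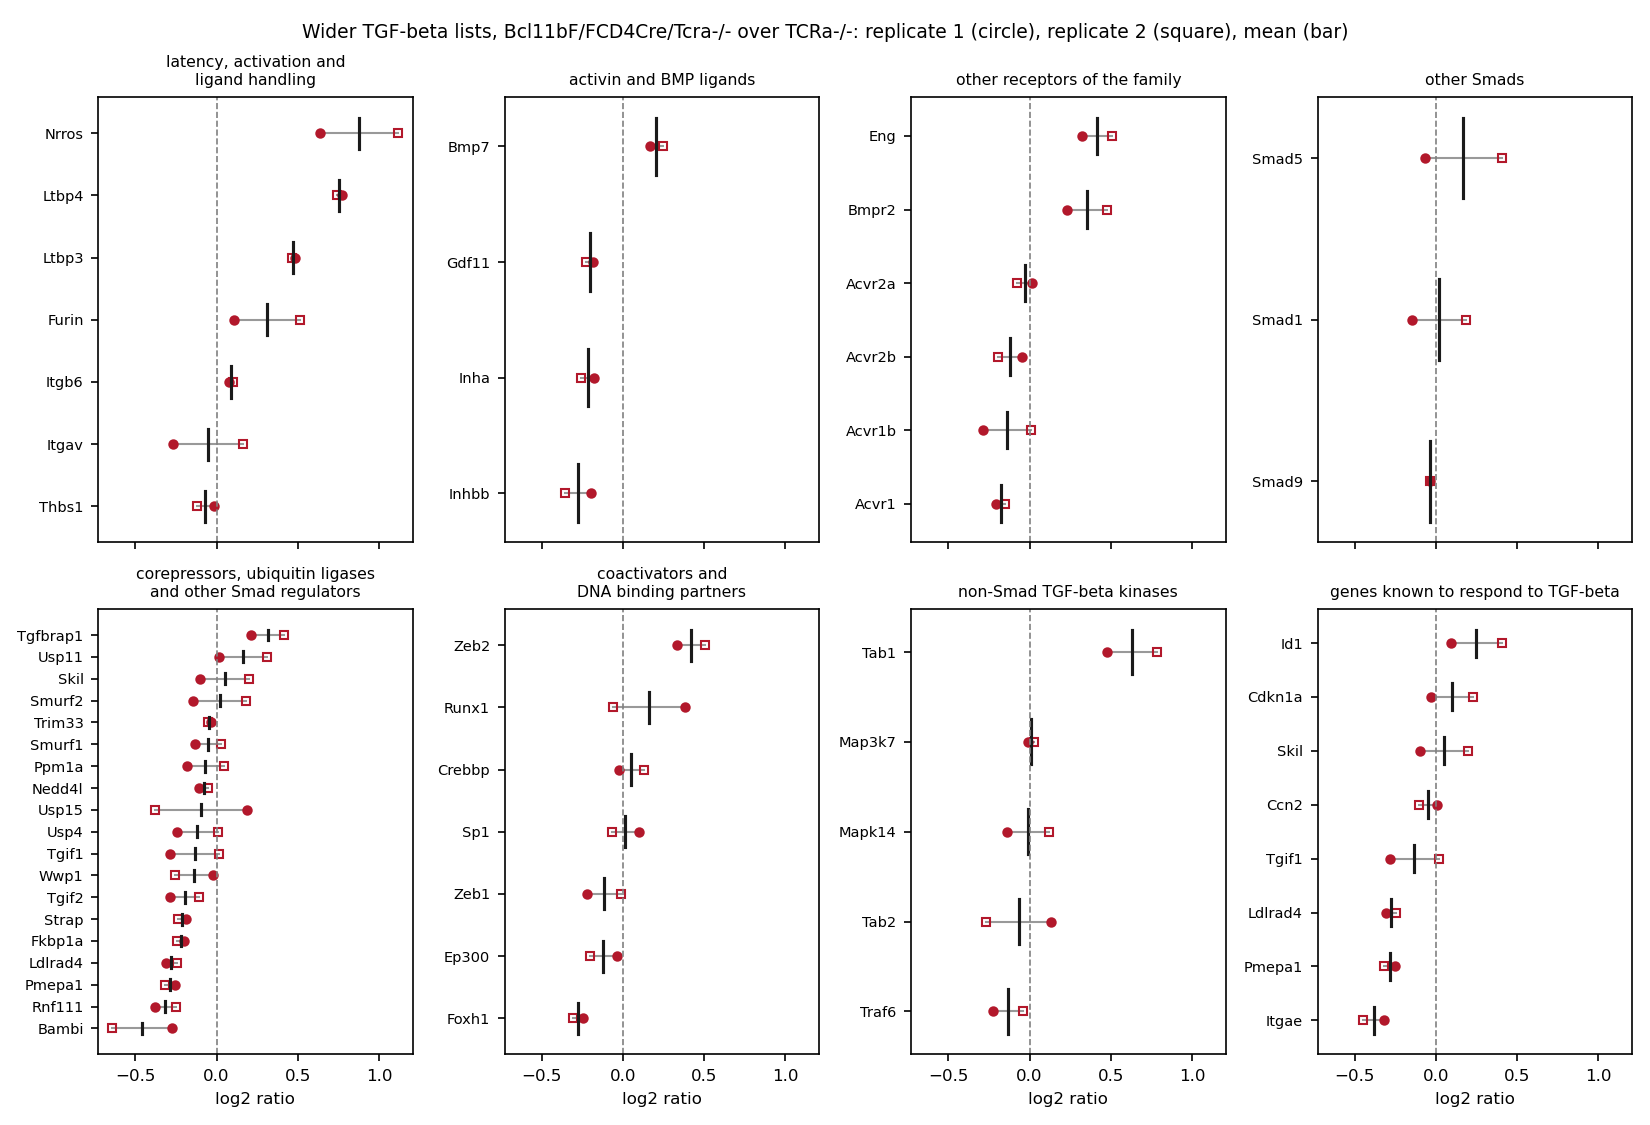
Log2 ratio of Bcl11bF/FCD4Cre/Tcra-/- over TCRa-/- for the kept genes of the 8 wider lists on replicate 1 (circle) and replicate 2 (square), joined by a line, with the mean as a bar. Nrros and Ltbp4 lie farthest to the right in the latency list, at means of 0.88 and 0.76, and Bambi lies lowest among all listed genes at -0.46.

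Markers of other cell types that make TGF-beta or its anchoring proteins differed between the samples beside these results. Of 8 stromal or endothelial markers, 7 were kept, while Cdh5 was not well above background. On both arrays 6 were higher, where 36.4% of all genes were, and the median of the 7 was 0.71. Examples among the 6, picked by their values, were Dcn at 0.88 and 0.79 and Kdr at 0.02 and 0.01. Also picked by their values, Col1a1 and Col1a2 were each well above background in 1 control sample. The other kept probe of Col1a1 had a mean of -0.28. The summed processed signal of the 7 was 5946 and 2273 in deficient samples, against 3611 and 988 in control samples. Of 8 macrophage or monocyte markers all 8 were kept (median 0.28). On both arrays 4 were higher and 3 lower, where 36.4% and 38.5% of all genes were. The sums were 28629 and 30439 in deficient against 26107 and 10244 in control samples. Lyz2, singled out after its values were seen, made up most of them, with 25054 and 28033 in deficient against 23207 and 8756 in control samples. That probe of Lyz2 had a mean log2 ratio of 1.03, while its other kept probe had 0.34. Of 4 platelet or megakaryocyte markers 2 were kept, Pf4 at 0.99 and 1.87 and Itga2b at -0.20 and -0.21, with sums of 503 and 872 in deficient against 256 and 216 in control samples. Erythroid markers split the arrays, with Hba-a1 at -0.42 and 2.26, and sums of 24424 and 43462 in deficient against 39737 and 9945 in control samples. NK cell markers were higher in all 3 kept of 4, with sums of 3643 and 4002 in deficient against 1409 and 816 in control samples. Of 5 thymic epithelial markers 4 were kept (median -0.28, sums 5274 and 1967 in deficient against 7846 and 1622 in control samples), and of 4 B cell markers 2 were kept (-0.37, sums 457 and 226 against 964 and 255). None of the 4 dendritic markers was kept.

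The part of these cells in the values of Tgfb3, Smad3, Nrros, Ltbp4 and Eng was not tested. The stromal or endothelial sum was higher in the deficient sample of each array, at 5946 against 3611 on replicate 1 and 2273 against 988 on replicate 2. NK marker sums and Pf4 were also higher in the deficient sample of each array, Pf4 with 431 and 803 in deficient samples against 146 and 109 in control samples. The other kept platelet marker, Itga2b, was lower, with 72.1 and 68.3 in deficient samples against 110 and 107 in control samples. The cells that gave the NK marker signal were not identified, and no link of these markers to Tgfb3 was tested. Signals carry no scaling between arrays.

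**Figure D5:**
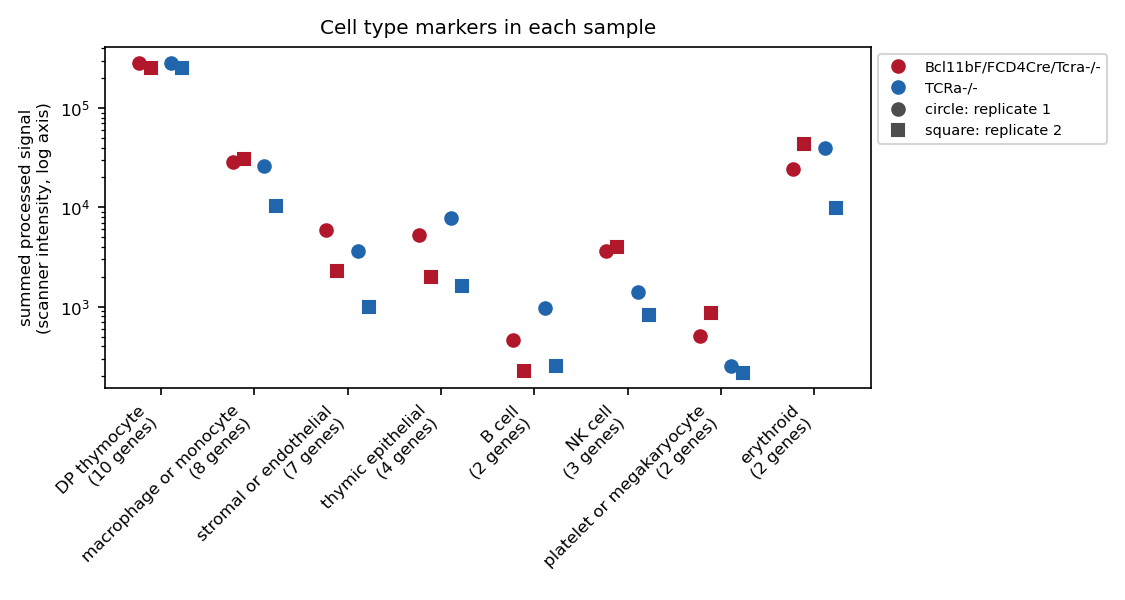
Summed processed signal (scanner intensity, log axis) of the kept markers of each cell type in the Bcl11bF/FCD4Cre/Tcra-/- samples (red) and the TCRa-/- samples (blue), replicate 1 as circles and replicate 2 as squares. DP marker sums, Dntt included, differ little within each array, while stromal or endothelial markers are higher in the deficient than in the control sample of each array.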

How the data were processed

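The authors used Agilent Feature Extraction 9.5.3.1, per the submitters' processing notes. Per the file headers, the deposited mean and local background signals are scanner intensity with no correction. The deposited processed signals are intensity after background subtraction, spatial detrending and dye normalisation, with surrogates for dim spots, per the file headers. The deposited log ratio is log10 of processed Cy5 over Cy3 and is 0 where both signals are surrogates. The deposited value table of the series equals that log10 ratio to within 0.005, with a median of 0 on each array.

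From the mean and background signals, ratios were computed with limma 3.58.1 and statmod 1.5.0 in R 4.3.3, by normexp (offset 50) and loess within arrays, with weight 0 for controls. Outlying spots were left out, 108 and 116 on replicates 1 and 2, and spots of a probe averaged. The normexp step compresses ratios of dim probes. Limma tested the mean of 2 ratios against 0 over 21539 kept probes, with Benjamini-Hochberg adjustment at 0.05, 1 residual degree of freedom and a prior of 2.46. Both arrays came from 1 slide and 1 scan, so neither could be tested as a batch. Probes took symbols from the RefSeq table of GRCm38.p6, and 8058 kept the array's name. Named were all members, wider-list genes at least 0.5 from 0 in 1 direction on both arrays, and genes marked as singled out later, namely those that made up small counts or lay at the ends of a list. The members and lists were chosen with earlier results of these data known. Values of 2 listed genes are not reported here. Alternatives were processed signals, the value table, median and running-median centring, separate-channel limma, other filters, 1 probe a gene and each array alone. No genome of the mm8 build was used, so exons and UTRs are not assigned to the probes.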

Additional observations from a re-analysis of the deposited data

How the results depend on the processing

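Of 97 values of the 13 kept member probes under other settings with both arrays, 90 kept their direction and their side of the threshold. With other filters, 1 probe a gene and separate-channel limma the mean was the same by construction, so only the adjusted p could change. The value table repeats the log10 ratio of processed signals to within 0.005, so the count is no measure of robustness. Tgfb3, at 1.44, passed with processed signals (3.61), the value table (3.60), median centring (1.38) and separate-channel limma (1.44), whereas the other settings left it uncalled. Median centring turned Smad2 to 0.049 and the Smad4 probes to 0.22 and 0.021, and it raised the median of kept probes by 0.09 on replicate 1 and 0.14 on replicate 2. On replicates 1 and 2 alone, the values were -0.018 and 0.26 for Tgfb1, -0.031 and 0.31 for Ski probe 1, and 0.35 and -0.11 for Ski probe 3.

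The number of probes called was 0 in the reported setting, with 5824 at an unadjusted p under 0.05 by limma, and 30 with processed signals, 17 with the value table, 1163 with separate-channel limma and 972 with median centring. The number of member genes called was 0, or 1 (Tgfb3) in each of these 4 settings. Of the wider lists 0 genes were called, or 3 with median centring and 2 with separate-channel limma. Means above and below 0 numbered 22 and 33, or 38 and 17 with median centring. The cause was not tested.

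Each ratio is a difference within 1 array, so the reported test is itself paired, and no further block was fitted. Signal over background limits Tgfb3 and Smad3 probe 3 to bounds and leaves Smad7, Tgfbr3 and the dim probes of Tgfbr1 and Tgfbr2 uncompared.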
